A study of Rattus norvegicus with 12 samples.

Results

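GS cells are rat cardiac fibroblasts that carry viral Sall4 and Gata4 and are labelled as immortalized. The comparison described here asked what changed when EGM2 solution was added to CMM, the medium in which GS cells were put through cardiomyocyte differentiation. Its members are 6 of the 12 RNA sequencing libraries of the study, chosen by their labels. The 3 libraries of GS cells in CMM alone are labelled as cardiomyocyte differentiation (diff1), and the 3 libraries of GS cells in CMM plus EGM2 are labelled as cardiomyocyte and endothelial differentiation (diff2). Both groups carry the same viral genes, and no group of the study received EGM2 without CMM. The other 6 libraries, 3 of undifferentiated, untreated GS cells and 3 of untreated wild-type rat cardiac fibroblasts without the viral genes (RCF), entered the model and are given only as reference levels. The labels call each set of 3 biological replicates. They do not say whether GS cells are 1 clone, how long either medium was applied or at what cell density, and do not spell out CMM. Length of culture and density cannot be told apart from the addition of EGM2.

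EGM2 is an endothelial growth medium. Such media are known to carry vascular endothelial growth factor (VEGF), fibroblast growth factor 2, epidermal growth factor and an insulin-like growth factor, together with the glucocorticoid hydrocortisone, heparin, ascorbic acid and serum, although the labels do not list what was added here. Growth factor receptors act largely through the RAS and ERK kinase cascade, whose targets include the genes of its own inhibitors, such as the dual specificity phosphatases and the Sprouty and Spred proteins. Glucocorticoids bind the receptor encoded by Nr3c1, which then acts on genes such as Fkbp5 and Tsc22d3. Cardiac fibroblasts in culture often turn into myofibroblasts, contractile and matrix-producing cells marked by smooth muscle actin (Acta2), under transforming growth factor beta and mechanical tension.

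Total counts of the 6 libraries ranged from 17241662 to 22454095, with 16522 to 16707 detected genes per library. Levels are given as CPM, the counts of a gene scaled to the TMM-adjusted size of its library. CPM is not divided by gene length, so levels of different genes are not compared. A gene was called when its adjusted p in edgeR's quasi-likelihood test was below 0.05. On the first principal component, which held 78.0% of the variance, the 3 libraries of one medium lay apart from the 3 of the other. Log2 profiles correlated at 0.9862 to 0.9871 across genes within a group and at 0.9273 to 0.9286 between groups. The share of counts from mitochondrial DNA genes was 1.59 ± 0.105% with CMM alone and 1.83 ± 0.0345% with EGM2 (exact permutation test, two-sided p = 0.1, the smallest that 3 against 3 libraries allow). The 10 genes with most counts took 11.05 to 11.24% of each CMM library and 8.69 to 8.76% of each EGM2 library.

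Both introduced factors were present at lower levels in the EGM2 libraries. Sall4, a zinc finger factor of early embryonic cells, stood at 224, 222 and 231 CPM with CMM alone and 68.9, 67.5 and 72.4 CPM with EGM2, which is 3.24-fold lower (log2 fold change -1.70, SE 0.0411, adjusted p = 9.81e-24). It had 0 counts in all RCF libraries and 246 CPM on average in undifferentiated GS cells. Gata4, a zinc finger factor of heart and endoderm development, stood at 487, 498 and 500.2 CPM with CMM alone and 281, 286 and 289 CPM with EGM2, 1.74-fold lower (log2 fold change -0.80, SE 0.0284, adjusted p = 1.02e-20). Mean Gata4 was 206 CPM in RCF, which lack the viral genes, and 595 CPM in undifferentiated GS cells. The groups with and without EGM2 did not overlap for either gene. Reads of the viral and the endogenous copies cannot be separated in these counts. The part of these lower levels in the differences below was not tested.

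A large share of the tested genes differed between the media. The filter ran over all 4 groups, so some tested genes, also in the lists, had 0 counts in both media, as Adgre1 did. In the 6 libraries alone, 13664 genes were tested and 9075 called. Of 14399 tested genes, 9167 (63.7%) were called, 4628 (32.1%) higher and 4539 (31.5%) lower with EGM2. At least 2-fold differences were called for 1538 genes higher (10.7%) and 1197 lower (8.31%), and the median log2 fold change over all tested genes was 0.0039. These shares are the background against which the counts of each gene list below are read: a list with about 32.1% of members higher and 31.5% lower does not stand apart from the table. In bulk RNA, a lower level of a marker can come from fewer cells of a type or from less RNA per cell, and these cannot be told apart.

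**Figure D1:**
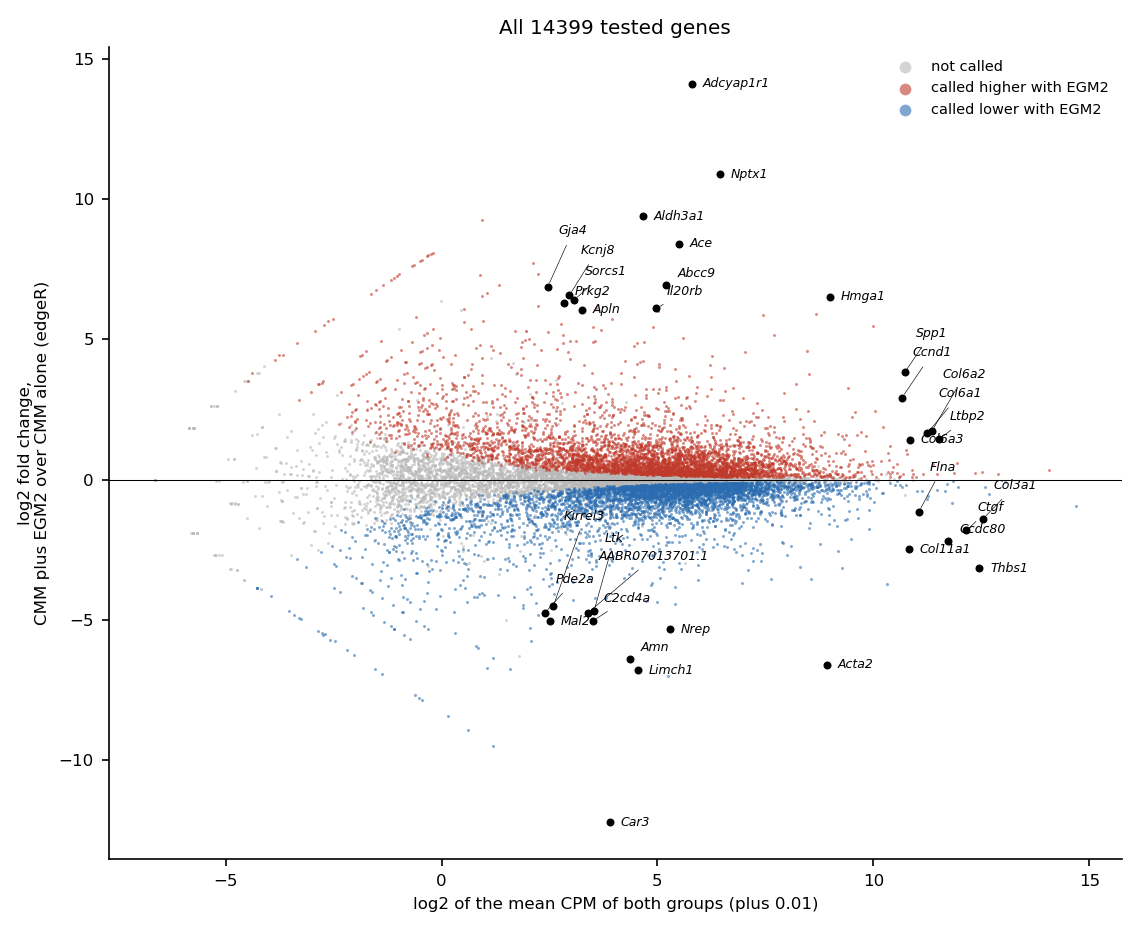
Log2 fold change (edgeR, CMM plus EGM2 over CMM alone, vertical axis) of all 14399 tested genes against the log2 of their mean CPM over both groups (horizontal axis), with genes called higher in red and lower in blue. Black points are named genes among the largest rises and falls and, of the genes called with at least a 2-fold difference, those with most CPM. Values of genes at 0 in a group, such as Adcyap1r1 and Car3, depend on the prior count of the model.

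**Figure D2:**
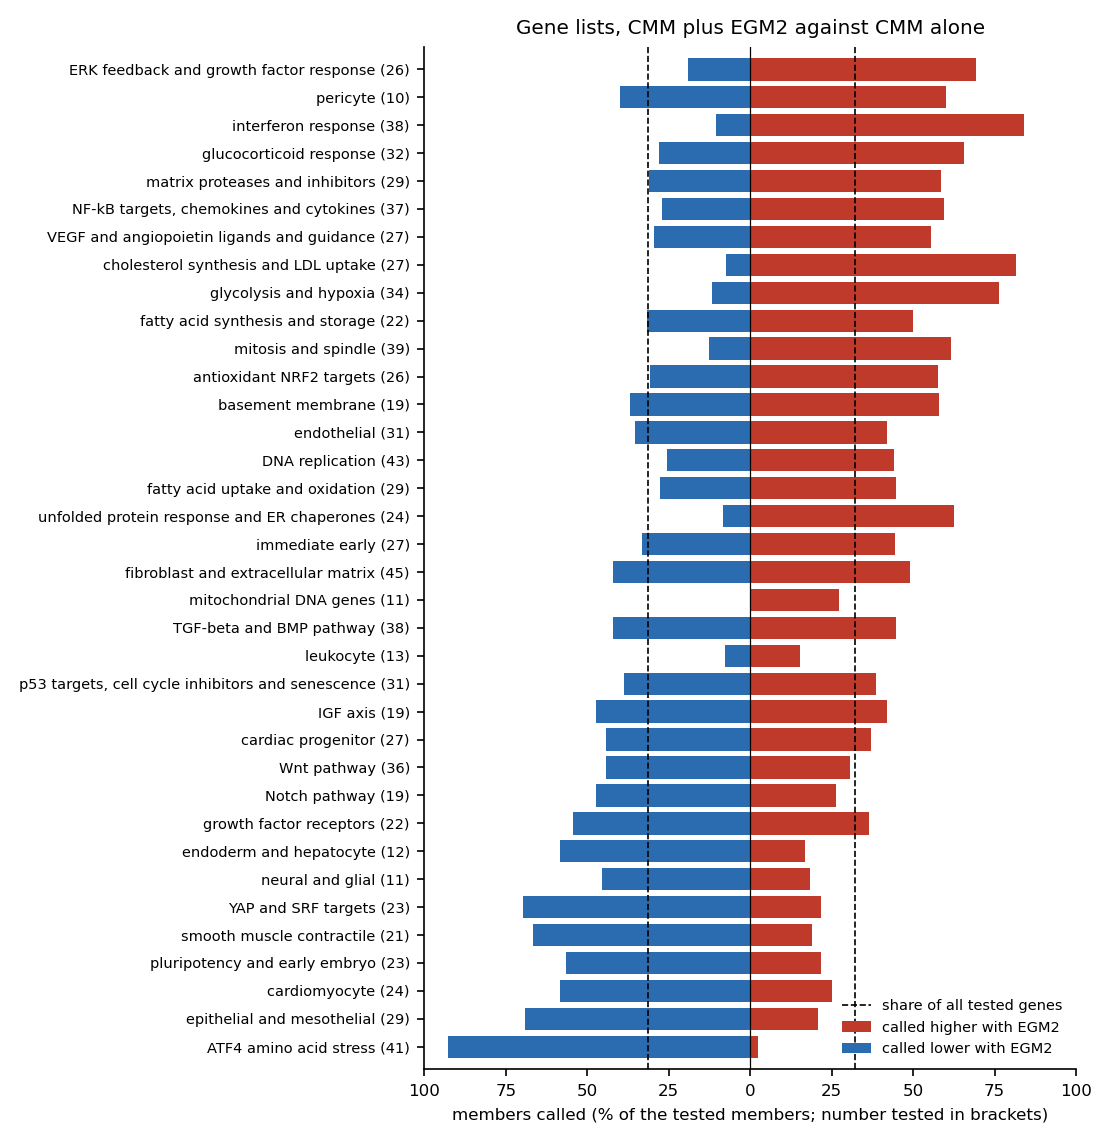
Share of tested members called higher (red, to the right) and lower (blue, to the left) with EGM2 for each of 36 gene lists, ordered by median log2 fold change, with the number tested in brackets. Dashed lines mark the shares over all tested genes, 32.1% higher and 31.5% lower; the interferon, cholesterol and glycolysis lists reach furthest to the right, and the ATF4 list furthest to the left.

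Endothelial genes were split between rises and falls. Of the 46 listed, 31 were tested, 13 rose and 11 fell (41.9% and 35.5%), with a median log2 fold change of 0.19. That median was -0.03 with no filter on low counts and just below 0 without CMM replicate 1. The summed level of the matched list was 1687 to 1698 CPM with CMM alone and 1679 to 1737 CPM with EGM2. Several defining genes of the lineage were at or near 0 in both media, although others, Flt1 and Tek among them, were not. Cdh5, the cadherin of endothelial junctions, had 0 counts in all CMM libraries and 1, 3 and 1 counts with EGM2. Kdr, the main signalling receptor for VEGF, had 0, 4 and 1 counts with CMM alone and 1, 0 and 1 with EGM2. Emcn, Cldn5 and Robo4 had 0 counts in all 6 libraries, and Etv2, an early endothelial factor, had 1 count in 1 CMM library and 0 elsewhere among the 6. Pecam1 was not analysed here.

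Other receptors and factors of vessels differed gene by gene. Flt1, a VEGF receptor, fell from 330.5 to 268 CPM (log2 fold change -0.30, SE 0.0359, adjusted p = 1.46e-08), while Flt4, the receptor for the lymphatic VEGF ligands, rose from 0.179 to 1.29 CPM (adjusted p = 6.56e-06). The VEGF co-receptor Nrp2 rose from 266 to 393 CPM, and its relative Nrp1 fell from 73.5 to 34.1 CPM (2.16-fold lower). Tek, the angiopoietin receptor, was at 13.8, 19.6 and 15 CPM with CMM alone and 14.8, 12.7 and 13.2 CPM with EGM2, with overlapping groups, and did not pass the test (log2 fold change -0.25, SE 0.127, adjusted p = 0.0912); without CMM replicate 1 it did (adjusted p = 0.0284). Tie1, its orphan partner, fell from 1.78 to 0.711 CPM (adjusted p = 0.012), a call that was lost without CMM replicate 1 (adjusted p = 0.0689) or without EGM2 replicate 1 (adjusted p = 0.0558). Erg, an ETS factor of endothelial cells, fell from 6.07 to 0.322 CPM, 18.4-fold lower. The SOX factors Sox7 and Sox17 fell from 58.7 to 22.7 CPM and from 331 to 282 CPM. Among the rises were 2 connexins of arterial cells, which were nearly absent with CMM alone: Gja4 had 5 counts over the 3 libraries with CMM alone and 671 with EGM2, and Gja5 had 2 counts over the 3 libraries with CMM alone and 88 with EGM2. Lyve1, a hyaluronan receptor of lymphatic vessels, had 7 counts over the 3 libraries with CMM alone and 203 with EGM2. Vwf, the clotting carrier protein of endothelial cells, rose from 1.55 to 3.65 CPM.

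The list of VEGF and angiopoietin ligands and guidance genes leaned towards higher levels. In it, 15 of 27 tested members rose (55.6%) and 8 fell (29.6%), with a median of 0.64. Apln, the ligand apelin, stood at 0.143, 0.403 and 0.29 CPM with CMM alone and 18.7, 18.5 and 19.1 CPM with EGM2 (66.5-fold higher; log2 fold change 6.05, SE 0.235, adjusted p = 7.84e-20), and none of these libraries overlapped. Cxcl12, a chemokine that guides progenitor and vessel cells, stood at 3.28, 4.84 and 3.19 CPM with CMM alone and 61.5, 59.3 and 65.4 CPM with EGM2, a 16.4-fold rise. Mean Cxcl12 was 53.7 CPM in undifferentiated GS cells and 654 CPM in RCF. Vegfa rose from 171 to 277 CPM and Vegfb from 18.3 to 49.8 CPM. Vegfc was at 55 and 51.9 CPM and did not pass the test (adjusted p = 0.164). Hgf, the ligand of the Met receptor, rose from 8.97 to 44.6 CPM, and Met itself from 8.33 to 17.5 CPM. Falls were led by Edn1, the vasoconstrictor endothelin 1, at 56.8, 53.1 and 52.9 CPM with CMM alone and 4.15, 4.64 and 3.86 CPM with EGM2 (12.8-fold lower; log2 fold change -3.68, SE 0.0912, adjusted p = 9.64e-25). The VEGF family ligands Pgf and Figf (Vegfd) fell from 15.2 to 3.2 CPM and from 166 to 59.9 CPM.

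**Figure D3:**
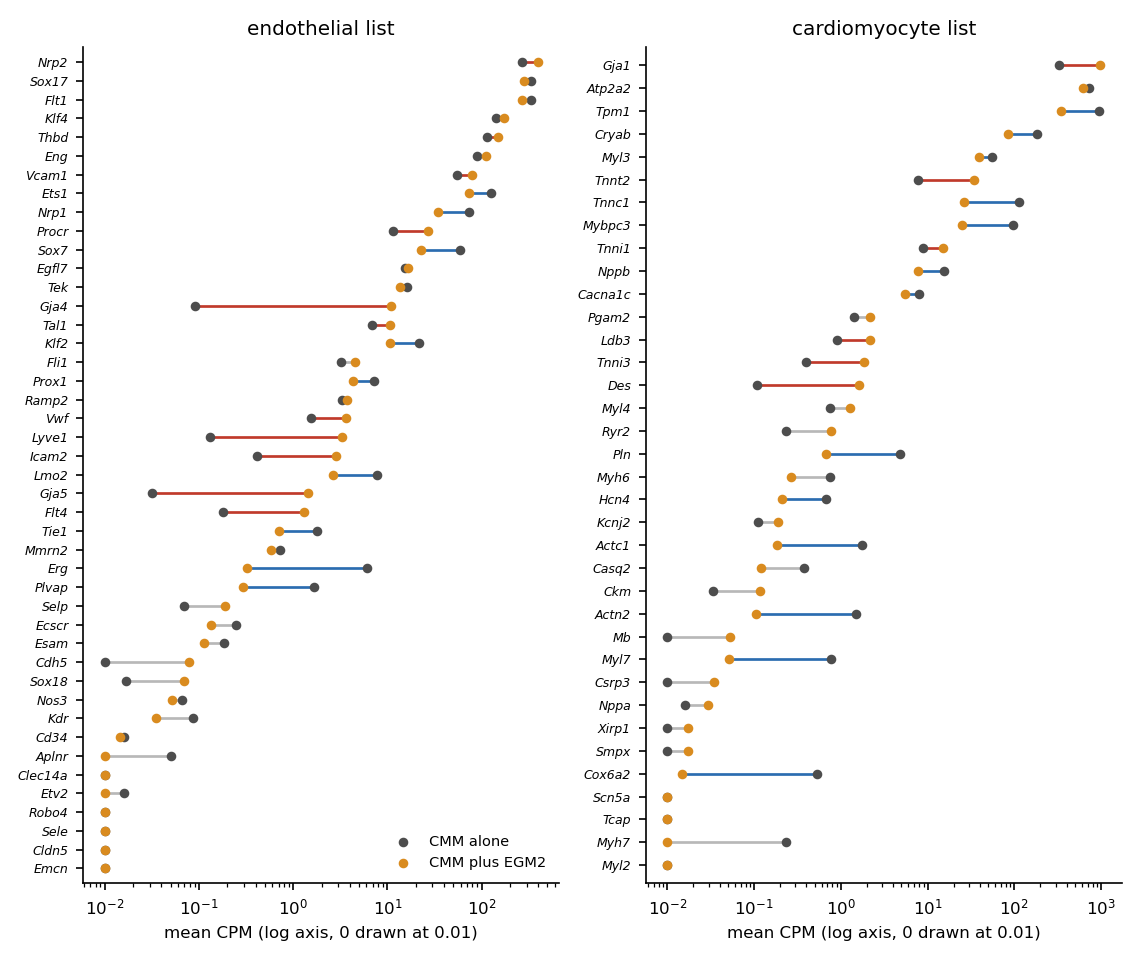
Mean CPM (horizontal log axis, 0 drawn at 0.01) with CMM alone (grey points) and with EGM2 (orange points) of each matched gene of the endothelial list (left) and the cardiomyocyte list (right); the line between them is red where the gene was called higher, blue where called lower and grey where not called or not tested. Cdh5, Kdr, Emcn, Cldn5 and Robo4 lie at the bottom of the left panel with or without EGM2.

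Genes that report growth factor signalling through ERK mostly rose with EGM2. In this list 18 of 26 tested members rose (69.2%), 5 fell (19.2%), and the median log2 fold change was 1.40. Their summed level was 1078 to 1093 CPM with CMM alone and 4396 to 4453 CPM with EGM2, and Ccnd1 alone made up 2855 to 2883 CPM of the latter. Dusp6, the phosphatase that switches off ERK in the cytoplasm, stood at 11.1, 10.3 and 11.1 CPM with CMM alone and 258, 245 and 254 CPM with EGM2, 23.2-fold higher (log2 fold change 4.54, SE 0.0587, adjusted p = 6.34e-32). Every EGM2 library was above every CMM library and above the GS mean of 55.2 CPM. Dusp5, its nuclear counterpart, rose from 5.81 to 47.2 CPM. The PEA3 group of ETS factors moved the same way: Etv4 rose from 2.48 to 43.8 CPM, Etv1 from 2.36 to 24.5 CPM and Etv5 from 30.4 to 89.6 CPM. Fosl1, an AP-1 subunit stabilised by ERK, stood at 15, 15.8 and 16.6 CPM with CMM alone and 130.3, 129 and 120.0 CPM with EGM2 (8.0-fold higher; log2 fold change 3.00, SE 0.0708, adjusted p = 2.74e-25).

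Not all feedback inhibitors shared the direction. Spry4, Spry2, Spred2 and Spred3 rose, for example Spry4 from 2.07 to 6.61 CPM, whereas Spry1 fell from 14.1 to 6.47 CPM and Dusp4 from 51.4 to 20.9 CPM. Of the listed ligands of the epidermal growth factor receptor, Ereg rose from 6.33 to 47.3 CPM, Tgfa from 19.7 to 50.2 CPM and Hbegf from 47.8 to 117 CPM, while Areg was at 6.29 and 5.97 CPM (adjusted p = 0.808). The immediate early list held 12 higher and 9 lower of 27 (44.4% and 33.3%, median 0.10). Jun rose from 124 to 356 CPM and Egr1 only from 98.4 to 119 CPM, while Fos fell from 21.4 to 8.48 CPM and Egr3 from 3.43 to 0.887 CPM.

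Growth factor receptors tended to be lower, with 12 of 22 down (54.5%) and 8 up (36.4%). Ntrk2, the receptor for brain-derived neurotrophic factor, stood at 245, 256 and 245 CPM with CMM alone and 38.4, 41.8 and 41.8 CPM with EGM2 (6.1-fold lower; log2 fold change -2.61, SE 0.0439, adjusted p = 5.73e-29). Kit, the stem cell factor receptor, fell from 107 to 41.7 CPM, Fgfr3 from 181 to 78.1 CPM, Pdgfrb from 208 to 91.4 CPM and Egfr from 17.1 to 8.88 CPM. Fgfr1 rose from 128 to 182 CPM and Igf1r from 29.8 to 41.2 CPM. The IGF list was mixed, 8 higher and 9 lower of 19. The growth factor gene Igf2 stood at 14.9, 14.6 and 14.9 CPM with CMM alone and 92.1, 89.4 and 92.4 CPM with EGM2 (6.16-fold higher; log2 fold change 2.62, SE 0.0872, adjusted p = 1.63e-21), and Igf1 fell from 28.5 to 16.5 CPM. The binding protein Igfbp2 fell from 202 to 39.1 CPM.

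**Figure D4:**
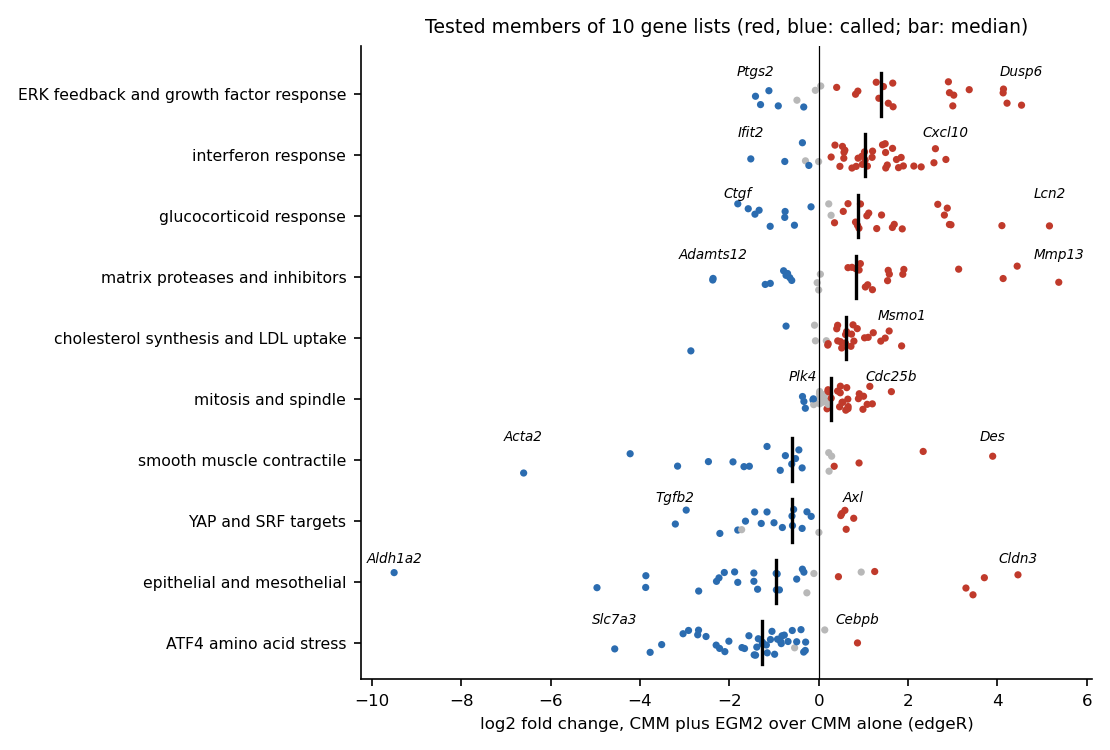
Log2 fold change (edgeR, CMM plus EGM2 over CMM alone, horizontal axis) of each tested member of 10 gene lists, with called members in red (higher) or blue (lower), others in grey, the list's median as a black bar and most members at the ends named. Medians run from 1.40 for the ERK list to -1.26 for the ATF4 list.

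Ccnd1 encodes cyclin D1, the G1 cyclin that growth factors induce. It was among the genes with most CPM of those called with at least a 2-fold difference. Its level was 377, 377 and 377 CPM with CMM alone and 2855, 2862 and 2883 CPM with EGM2 (7.6-fold higher, log2 fold change 2.93, SE 0.0266, adjusted p = 1.47e-35). Genes of mitosis rose, mostly by less than 2-fold: 24 of 39 were higher (61.5%) and 5 lower (12.8%), with a median of 0.28. Cdc25b, a phosphatase that opens entry into mitosis, rose from 22.9 to 70.6 CPM, Kif20a from 116 to 266 CPM and the proliferation marker Mki67 from 189 to 287 CPM. Ccnb1, cyclin B1, was at 119 and 120.4 CPM (adjusted p = 0.783). Replication genes were less one-sided, 19 higher (44.2%) and 11 lower (25.6%) of 43. E2f2 and Gins2 rose from 3.63 to 9.05 CPM and from 14.5 to 35.5 CPM, while Ccne1, cyclin E1, fell from 48.2 to 17.9 CPM. Inhibitors of G1 kinases rose too: Cdkn2a stood at 11.5, 8.52 and 8.69 CPM with CMM alone and 31.3, 58.6 and 47.2 CPM with EGM2, Cdkn2b at 49.3, 53.2 and 50.8 CPM with CMM alone and 180.2, 179 and 168 CPM with EGM2, and Cdkn1a (p21) rose from 209.6 to 347 CPM. Libraries of the 2 media did not overlap for these 3 genes. The p53 and inhibitor list as a whole held 12 higher and 12 lower of 31, with a median of -0.0038.

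Hmga1 and Hmga2, architectural chromatin proteins of embryonic and proliferating cells, were among the largest rises. Hmga1 stood at 11.4, 9.68 and 12.2 CPM with CMM alone and 1056, 993 and 991 CPM with EGM2, which is 91.6-fold higher (log2 fold change 6.52, SE 0.056, adjusted p = 7.47e-33), far above the 28.3 CPM of undifferentiated GS cells. Reads of processed copies of such short genes cannot be separated in these counts. Hmga2 stood at 2.62, 2.17 and 2.96 CPM with CMM alone and 47.2, 49.4 and 46.8 CPM with EGM2 (18.6-fold higher). Most other embryonic genes moved the opposite way. Of 23 tested pluripotency and early embryo genes, 13 fell (56.5%) and 5 rose (21.7%), with a median of -0.61 (-0.999 without EGM2 replicate 2). Lin28a, an RNA-binding protein that blocks let-7 maturation, stood at 254, 264 and 262 CPM with CMM alone and 36.4, 37 and 32.2 CPM with EGM2 (7.39-fold lower; log2 fold change -2.89, SE 0.0488, adjusted p = 1.97e-27). Further genes of early embryos, Trim71, Dnmt3b and Igf2bp1, also fell, to 2.69, 5.85 and 54.2 CPM from 14.6, 43.8 and 139 CPM. Pou5f1 did not pass the test, at 0.766 and 0.62 CPM.

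Glucocorticoid-responsive genes were higher in 21 of 32 tested cases (65.6%) and lower in 9 (28.1%), with a median of 0.88. The summed level of the list went the other way, 8353 to 8619.9 CPM with CMM alone and 4583 to 4669 CPM with EGM2, since it holds Ctgf, a matrix-associated growth factor that fell from 7106 to 2026 CPM. Fkbp5, a chaperone that restrains the glucocorticoid receptor, stood at 39.7, 36 and 43.8 CPM with CMM alone and 129, 121 and 125 CPM with EGM2 (3.14-fold higher; log2 fold change 1.65, SE 0.0667, adjusted p = 2.07e-18). Sgk1, a hormone-induced kinase, stood at 29.3, 30.5 and 27.9 CPM with CMM alone and 226, 220.0 and 220.5 CPM with EGM2, a 7.6-fold rise. Hsd11b1, the enzyme that makes active glucocorticoid inside cells, stood at 11.7, 12 and 11.7 CPM with CMM alone and 88.6, 95.1 and 91.5 CPM with EGM2 (7.78-fold higher). The metal-binding protein Mt2A rose from 8.2 to 141 CPM, the clock gene Per1 from 23.6 to 62.7 CPM and Tsc22d3 (GILZ) from 24.3 to 38.3 CPM. In undifferentiated GS cells Mt2A had a mean of 108 CPM and Hsd11b1 of 46.7 CPM, between the levels of the 2 media. RCF had 449 CPM of Mt2A and 201 CPM of Hsd11b1. Nr3c1, the receptor, rose from 84.1 to 108 CPM. Zbtb16 was below 1 CPM in both groups and did not pass the test, while the clock gene Per2 and the kinase gene Pdk4 were lower, going from 33.2 to 11.1 CPM and from 4.16 to 1.55 CPM. Several of these genes, such as Lcn2 and Sgk1, also answer to other signals.

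The contractile genes of smooth muscle and myofibroblasts were lower with EGM2. 14 of 21 tested members fell (66.7%) and 4 rose (19%), with a median of -0.60. The list summed to 7726 to 7796 CPM with CMM alone and 3252 to 3279.9 CPM with EGM2. Acta2, the actin that defines myofibroblasts (chr1:252537615-252550394, Rnor_6.0), stood at 964, 973 and 946 CPM with CMM alone and 8.4, 10.9 and 10.2 CPM with EGM2. The EGM2 libraries were 97.1-fold lower (log2 fold change -6.60, SE 0.0569, adjusted p = 1.34e-30) and lay below the undifferentiated GS mean of 88.4 CPM, while the CMM libraries lay above it. Tagln, an actin-bundling protein, stood at 1094, 1126 and 1101 CPM with CMM alone and 118, 127 and 127 CPM with EGM2, 8.92-fold lower. Myl9, the regulatory myosin light chain, fell from 22.3 to 1.19 CPM, Lmod1 from 21.9 to 3.98 CPM and Cnn1 (calponin) from 14.5 to 3.83 CPM. Exceptions were Des (desmin), which had 6 counts over the 3 libraries with CMM alone and 101 with EGM2, Synpo2, which rose from 0.867 to 4.39 CPM, and Mylk, the kinase of myosin light chains, which rose from 4.49 to 8.4 CPM. Myh11, the myosin heavy chain of mature smooth muscle, did not pass the test (3.38 and 4.13 CPM, adjusted p = 0.321).

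Targets of the tension-sensitive factors YAP and SRF fell in 16 of 23 cases (69.6%) and rose in 5 (21.7%), with a median of -0.60. Ctgf, a matricellular protein, stood at 6994, 7089 and 7235 CPM with CMM alone and 2031, 1989 and 2058 CPM with EGM2 (3.51-fold lower; log2 fold change -1.81, SE 0.0217, adjusted p = 9.68e-33). Cyr61 fell from 864 to 278 CPM, Ankrd1 from 79.7 to 10.2 CPM and Ajuba from 389.8 to 84.2 CPM. Srf itself fell from 128 to 72.7 CPM, and Myocd, the SRF partner of heart and smooth muscle, from 10.5 to 1.01 CPM. Mkl1, the actin-regulated SRF partner, rose from 55.8 to 79.8 CPM, and Wwtr1 (TAZ) from 86.3 to 129.6 CPM.

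Ligands of the TGF-beta family diverged. The pathway list held 17 higher (44.7%) and 16 lower (42.1%) of 38, with a median of 0.02. Tgfb2 stood at 266, 235 and 234 CPM with CMM alone and 24.6, 26.1 and 28.9 CPM with EGM2 (9.24-fold lower; log2 fold change -3.21, SE 0.056, adjusted p = 2.42e-24), Tgfb3 fell from 130.1 to 24.9 CPM, and Tgfb1 rose from 110.0 to 161 CPM. Inhba, the activin A subunit, stood at 359, 363 and 372 CPM with CMM alone and 31.5, 30.7 and 31.5 CPM with EGM2, 11.7-fold lower, while Inhbb rose from 17.1 to 78.1 CPM. On the BMP side, the ligand Bmp2 rose from 5.73 to 53.9 CPM and Gdf6 from 6.63 to 66.7 CPM. The BMP target genes Id1, Id2, Id3 and Id4 all passed the test as higher, Id1 from 71.1 to 179.8 CPM. Smad7, a feedback inhibitor of both branches, was at 122 and 124 CPM (adjusted p = 0.677). Tgfbi, a matrix protein named for its induction by TGF-beta, nonetheless stood at 0.808, 1.41 and 0.696 CPM with CMM alone and 68, 58.6 and 63.7 CPM with EGM2 (64.4-fold higher; log2 fold change 6.01, SE 0.396, adjusted p = 8.64e-07).

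**Figure D5:**
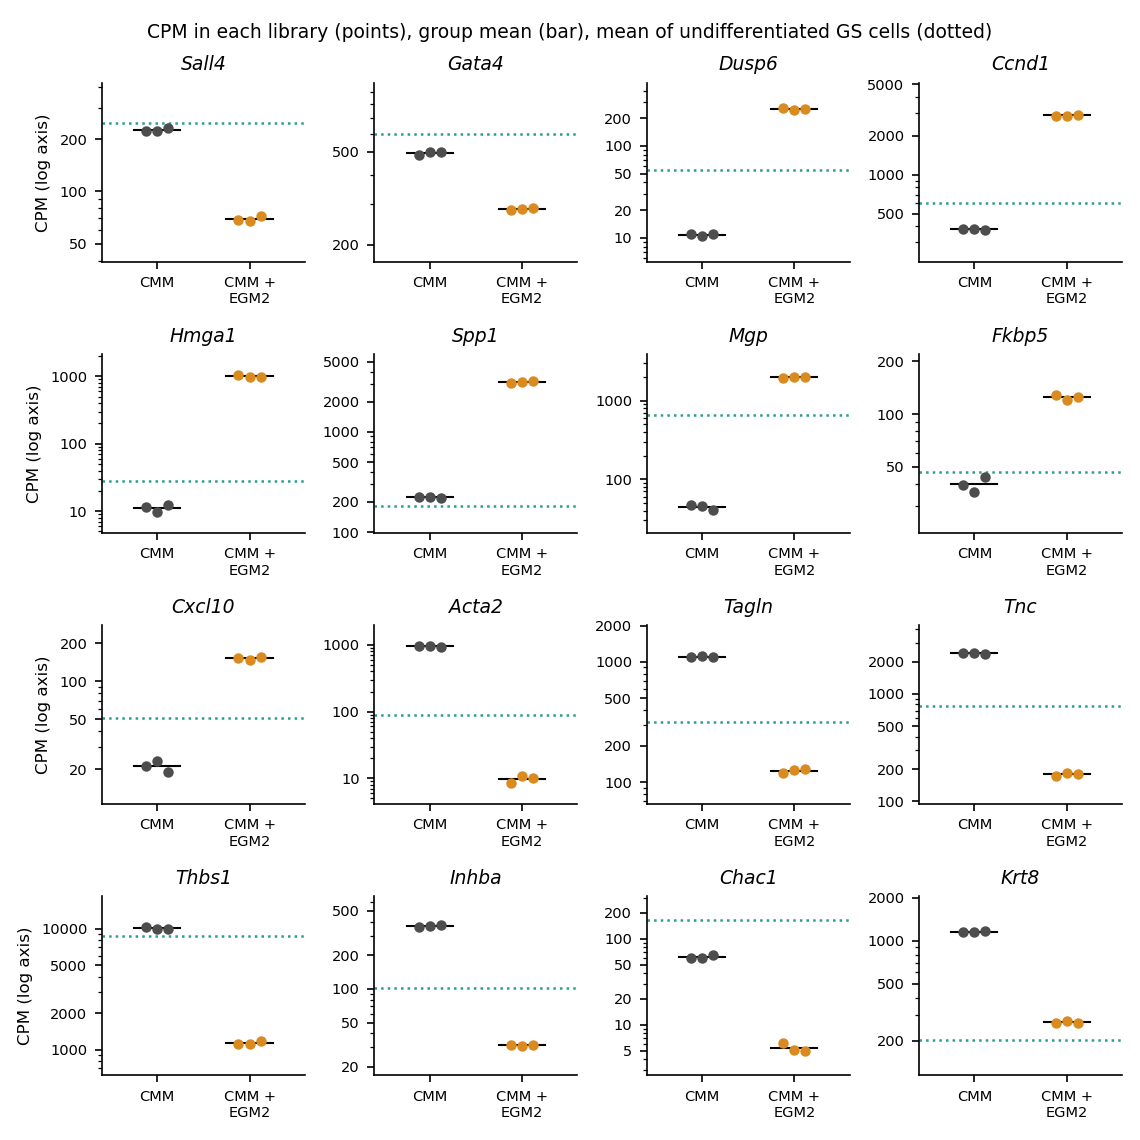
CPM of 16 genes (vertical log axis, one scale per gene) in each of the 3 libraries with CMM alone (grey) and the 3 with EGM2 (orange), with the group mean as a bar and the mean of undifferentiated GS cells as a dotted line. For all 16 genes the libraries of the 2 media do not overlap, and Acta2, Tagln and Tnc lie above the GS mean with CMM alone and below it with EGM2.

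Matrix genes moved in both directions. In the fibroblast and matrix list 22 of 45 members rose (48.9%) and 19 fell (42.2%), with a median of 0.08, and the list summed to 111434 to 113079 CPM with CMM alone and 89659 to 90651 CPM with EGM2. Among the fibrillar collagens, Col1a1 stood at 34163, 34187 and 35924 CPM with CMM alone and 18152, 18059.7 and 18238 CPM with EGM2 (1.92-fold lower; log2 fold change -0.94, SE 0.0222, adjusted p = 1.03e-20), and Col3a1 fell from 8589.7 to 3221 CPM. Col1a2 spread widely, at 2804, 2002 and 1272 CPM with CMM alone and 1148, 1505 and 1474 CPM with EGM2, and did not pass the test (adjusted p = 0.287). Glycoproteins of wound matrix fell as well: Tnc, tenascin C, stood at 2382, 2378 and 2367 CPM with CMM alone and 173, 184 and 182 CPM with EGM2 (13.2-fold lower; log2 fold change -3.73, SE 0.0299, adjusted p = 8.27e-37), and Thbs1, thrombospondin 1, at 10339, 9995 and 9862 CPM with CMM alone and 1103, 1107 and 1175 CPM with EGM2 (8.92-fold lower). Postn, periostin, fell from 698 to 60.0 CPM and Col11a1 from 3057 to 549 CPM. All EGM2 libraries lay below all CMM libraries for these genes.

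Collagen VI moved the other way, with Col6a1, Col6a2 and Col6a3 up from 1173 to 3695 CPM, from 1212 to 4032 CPM and from 1002 to 2684 CPM. Mgp, a matrix protein that inhibits calcification, stood at 46.6, 45.4 and 40.5 CPM with CMM alone and 1944, 1982 and 2018 CPM with EGM2 (44.8-fold higher; log2 fold change 5.48, SE 0.0457, adjusted p = 3.94e-29). Spp1, osteopontin, stood at 225, 226 and 219 CPM with CMM alone and 3098, 3170.4 and 3229.8 CPM with EGM2 (14.2-fold higher). The proteoglycans Vcan and Lum rose from 112 to 609 CPM and from 15.8 to 92.5 CPM. Basement membrane genes rose in 11 and fell in 7 of 19 cases (57.9% and 36.8%), with changes mostly under 2-fold. Lama2, a laminin chain of muscle, rose from 2.57 to 24.9 CPM and Col18a1, the source of endostatin, from 115 to 513 CPM, while Col4a1 and Col4a2 fell from 7752 to 5391 CPM and from 3689 to 2777 CPM.

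Matrix proteases and their regulators rose in 17 of 29 cases (58.6%) and fell in 9 (31.0%), with a median of 0.83. The stromelysin Mmp3 stood at 4.19, 2.57 and 3.94 CPM with CMM alone and 58, 62.8 and 66.2 CPM with EGM2 (17.5-fold higher; log2 fold change 4.13, SE 0.186, adjusted p = 1.75e-11). The gelatinase Mmp2 rose from 461 to 1355 CPM, its membrane-bound activator Mmp14 from 262 to 499.7 CPM, and the plasminogen activator Plau from 1.74 to 15.3 CPM. Mmp13 and Mmp10 were low throughout, with 2 counts over the 3 libraries with CMM alone and 102 with EGM2 for Mmp13 and 6 counts over the 3 libraries with CMM alone and 147 with EGM2 for Mmp10. The inhibitor Timp3 fell from 457 to 88.9 CPM, whereas Timp1 and Timp2 rose from 134 to 251 CPM and from 813 to 1871 CPM.

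Sarcomere and heart genes were mostly lower with EGM2 in cells whose culture is labelled as differentiation towards cardiomyocytes. In the cardiomyocyte list, 14 of 24 tested members fell (58.3%) and 6 rose (25%), with a median of -0.76 (-0.12 with no filter on low counts). It summed to 2469 to 2532 CPM with CMM alone and 2189.8 to 2214 CPM with EGM2, much of it from genes that other cells also express, such as Gja1 and Tpm1. Several defining genes were near 0. Myh7 had 6, 6 and 2 counts with CMM alone and 0 in all EGM2 libraries, Nppa had at most 2 counts in any of the 6, and Myl2 had none. Myh6 was at 0.571, 1.01 and 0.696 CPM with CMM alone and 0.104, 0.219 and 0.47 CPM with EGM2 and did not pass the test (adjusted p = 0.0625), although it did in the 6 libraries alone (adjusted p = 0.0246) and by limma-voom (adjusted p = 0.0228). Actc1, cardiac actin, fell from 1.75 to 0.185 CPM, Tnnc1, troponin C, from 113 to 26.1 CPM and Mybpc3, myosin-binding protein C, from 95.6 to 25.1 CPM. Tnnt2, cardiac troponin T, went the other way at 6.61, 7.46 and 8.93 CPM with CMM alone and 34.4, 33.6 and 34.3 CPM with EGM2 (4.46-fold higher; log2 fold change 2.16, SE 0.111, adjusted p = 1.07e-16), as did Tnni3, from 0.402 to 1.84 CPM. The gap junction protein Gja1 (connexin 43) rose from 328 to 982 CPM.

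Factors of heart development were split, 10 higher (37.0%) and 12 lower (44.4%) of 27, with a median of -0.16 that was 0.13 among genes of at least 10 CPM in 3 libraries. Besides Gata4, the factors Gata6, Tbx3 and Tbx18 fell, Gata6 from 210.4 to 122 CPM. Hopx, a homeodomain protein of differentiating heart muscle, stood at 1.76, 1.06 and 1.74 CPM with CMM alone and 43, 49.9 and 41.4 CPM with EGM2 (29.4-fold higher), and Wnt5a rose from 14.7 to 137 CPM. Tbx5 and Nkx2-5 did not pass the test, at 0.69 and 0.525 CPM and at 2.71 and 1.92 CPM.

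The amino acid stress genes driven by ATF4 fell almost throughout. ATF4 is a bZIP factor translated when the kinases that phosphorylate eIF2 are active, and it raises genes for amino acid synthesis, uptake and tRNA charging. 38 of 41 tested members fell (92.7%, against 31.5% of all genes), 1 rose, and the median log2 fold change was -1.26. Their sum was 7206 to 7227 CPM with CMM alone and 3159 to 3198 CPM with EGM2. Chac1, which degrades glutathione, stood at 59.8, 59.5 and 65.1 CPM with CMM alone and 6.12, 5.08 and 4.96 CPM with EGM2 (11.4-fold lower; log2 fold change -3.51, SE 0.0743, adjusted p = 1.75e-26). Trib3, a pseudokinase that dampens ATF4, stood at 109, 103 and 116 CPM with CMM alone and 14.4, 13.7 and 12 CPM with EGM2 (8.19-fold lower). The cystine transporter Slc7a11 fell from 54.1 to 4.0 CPM, and the bZIP factor Atf5 from 296 to 39.3 CPM. In serine and asparagine synthesis, Psat1 fell from 146 to 36.3 CPM and Asns from 182 to 55.4 CPM. Atf4 itself fell from 445 to 186 CPM. The member that rose was Cebpb (from 59.6 to 109 CPM), a bZIP factor with many other inputs.

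Genes of the unfolded protein response and of endoplasmic reticulum chaperones leaned higher by small amounts. 15 of 24 tested members rose (62.5%), mostly by little, 2 fell (8.33%), and the median was 0.16. The largest fall was that of Herpud1, from 109 to 75.1 CPM. Hspa5, the chaperone BiP, fell from 1769.7 to 1490.2 CPM, and Sdf2l1 rose from 29.3 to 61.4 CPM.

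The windows before the starts of ATF4 list members were read for the letters TGATGNAA, the core of the site that ATF4 shares with C/EBP factors, on both strands. Of 41 tested members, 26 had a window of 250 bases in the RefSeq table (GRCr8), and 6 of these held the letters (23.1%), against 3.27% of all 27457 windows. The 2 members with a match and the largest change, Chac1 and Trib3, are shown 5′ to 3′ on the gene's strand, with the match in capitals. In both the match lies on the opposite strand.
Chac1: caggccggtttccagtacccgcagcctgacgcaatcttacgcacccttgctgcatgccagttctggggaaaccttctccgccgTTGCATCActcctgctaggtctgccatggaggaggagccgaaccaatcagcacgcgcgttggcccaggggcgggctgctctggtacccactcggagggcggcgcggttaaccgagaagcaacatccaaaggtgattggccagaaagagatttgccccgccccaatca
Trib3: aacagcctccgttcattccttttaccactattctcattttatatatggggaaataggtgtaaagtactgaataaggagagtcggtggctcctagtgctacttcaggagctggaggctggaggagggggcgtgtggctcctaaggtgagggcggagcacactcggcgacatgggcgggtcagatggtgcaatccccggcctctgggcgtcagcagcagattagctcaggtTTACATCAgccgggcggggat
The Chac1 window is chr3:126795881-126796130, plus strand, and its match begins at base -167, counted from the start. The Trib3 window is chr3:161275534-161275783, minus strand, and its match begins at base -21. Such a match describes the letters in the window and is not a measured binding site.

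Interferon-response genes were higher as a group. 32 of 38 tested members rose (84.2%, against 32.1% of all genes), 4 fell (10.5%), and the median log2 fold change was 1.03. The list summed to 642 to 665 CPM with CMM alone and 1288 to 1322 CPM with EGM2. Cxcl10, a chemokine that draws T cells, stood at 21.2, 23.3 and 18.8 CPM with CMM alone and 153, 148 and 157 CPM with EGM2 (7.19-fold higher; log2 fold change 2.85, SE 0.0658, adjusted p = 1.67e-25). Ifitm3, a membrane protein that blocks entry of viruses, stood at 30.2, 31.5 and 31.2 CPM with CMM alone and 151, 148 and 156 CPM with EGM2 (4.9-fold higher). The interferon regulatory factor gene Irf7 rose from 9.3 to 32 CPM, and the ubiquitin-like Isg15 from 7.23 to 20.4 CPM. Against the trend, Ifit2 fell from 32.6 to 11.4 CPM. Mx1 also fell, from 1.13 to 0.651 CPM (adjusted p = 0.0157), a call lost without CMM replicate 3 (adjusted p = 0.081) and without EGM2 replicate 1 or 3 (adjusted p = 0.139 and 0.0601). Undifferentiated GS cells had 51 CPM of Cxcl10 and 165 CPM of Ifitm3.

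The letters GAAANNGAA, part of the interferon-stimulated response element, were present on one strand or the other in 18 of the 30 tested interferon list members that had a window (60.0%), against 7.99% of all windows. The 2 called members with a match and the largest change are shown with the match in capitals.
Cxcl10: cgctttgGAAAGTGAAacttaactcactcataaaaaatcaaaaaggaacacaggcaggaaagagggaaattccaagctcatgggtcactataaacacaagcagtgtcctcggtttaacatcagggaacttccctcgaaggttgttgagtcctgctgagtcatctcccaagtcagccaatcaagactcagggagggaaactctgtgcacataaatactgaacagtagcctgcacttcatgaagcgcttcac
Ifitm3: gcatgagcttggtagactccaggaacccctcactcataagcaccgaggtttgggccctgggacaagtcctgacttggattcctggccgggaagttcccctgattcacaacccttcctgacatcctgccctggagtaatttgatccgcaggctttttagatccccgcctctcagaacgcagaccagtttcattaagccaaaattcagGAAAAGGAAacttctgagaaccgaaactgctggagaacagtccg
These windows are chr14:15988816-15989065, plus strand, with the match from base -243, and chr1:205541759-205542008, minus strand, with the match from base -44 (GRCr8). The AP-1 letters TGANTCA were in 2 of 21 windows of ERK list members (9.52%, against 6.36% of all), one of them Mmp3. The CArG box, bound by SRF, was in 1 of 13 windows of contractile genes (7.69%, against 1.5%), that of Cnn2. The sterol element letters TCACNCCAC were in 0 of 19 windows of cholesterol list members, against 0.976% of all.

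Chemokines and NF-kB targets rose in 22 of 37 cases and fell in 10 (59.5% and 27%). Lcn2, an iron-binding lipocalin, stood at 11.4, 11.5 and 10.8 CPM with CMM alone and 392, 408 and 413 CPM with EGM2 (35.8-fold higher; log2 fold change 5.16, SE 0.0551, adjusted p = 6.36e-34). Ptges, the prostaglandin E synthase, rose from 0.716 to 22 CPM, complement C3 from 142 to 523 CPM and the inhibitor Nfkbia from 41.1 to 95.1 CPM. The monocyte chemokine Ccl2 fell from 277 to 115 CPM, the cytokine Il6 from 0.934 to 0.374 CPM and the cyclooxygenase Ptgs2 from 61.6 to 23.1 CPM. Markers of leukocytes were low: 15 of the 26 listed genes had 0 counts in both groups, Adgre1 among them, Ptprc had 1 count in 1 EGM2 library, and the list summed to 17.6 to 18.9 CPM with CMM alone and 33.2 to 35.5 CPM with EGM2. Of 13 tested leukocyte genes, Cd14 and Cd68 rose, from 14.1 to 29.4 CPM and from 1.5 to 3.41 CPM, and Csf1r fell from 1.52 to 0.337 CPM.

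Cholesterol synthesis and uptake genes mostly rose, 22 of 27 higher (81.5%) and 2 lower (7.41%), 1 of these by more than any member rose, with a median of 0.60 and a sum of 2446 to 2491 CPM with CMM alone and 4357 to 4406 CPM with EGM2. Msmo1, a sterol oxidase, stood at 79.9, 82.7 and 80.6 CPM with CMM alone and 294, 294 and 291 CPM with EGM2 (3.62-fold higher; log2 fold change 1.86, SE 0.0419, adjusted p = 9.24e-26). Insig1, a membrane protein that holds back SREBP, stood at 200.4, 191 and 185 CPM with CMM alone and 545, 519 and 553 CPM with EGM2 (2.8-fold higher). Squalene epoxidase, Sqle, rose from 82.4 to 192 CPM. Lbr, a sterol reductase of the nuclear membrane, fell from 64.6 to 39 CPM.

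Fatty acid desaturases rose with them: Fads1 stood at 88.3, 92.2 and 85.3 CPM with CMM alone and 498, 498 and 525 CPM with EGM2 (5.72-fold higher) and Fads2 rose from 62.1 to 237 CPM. The wider list of fatty acid synthesis was split, 11 higher and 7 lower of 22, and Fasn, fatty acid synthase, fell from 490.1 to 363 CPM. Glycolysis and hypoxia genes rose in 26 of 34 cases (76.5%) and fell in 4 (11.8%), with a median of 0.44. Adm, adrenomedullin, stood at 38.8, 37.9 and 30.4 CPM with CMM alone and 187, 179 and 177 CPM with EGM2 (5.05-fold higher). Hk1 rose from 63.8 to 170.3 CPM and Ldha from 1206 to 1773 CPM, while Hk2 fell from 193 to 102 CPM. Oxidation of fatty acids was less one-sided, 13 higher (44.8%) and 8 lower (27.6%) of 29. Of 11 tested mitochondrial DNA genes, 3 rose (27.3%). Targets of the antioxidant factor NRF2 rose in 15 and fell in 8 of 26 (57.7% and 30.8%). Nqo1, the quinone reductase, rose from 95.6 to 247 CPM, while Gsta4 fell from 59.1 to 6.82 CPM. Slc7a11, given above with the ATF4 genes, is also on this list and fell.

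Epithelial and mesothelial genes were largely lower, 20 of 29 (69.0%) against 6 higher (20.7%), with a median of -0.95 (-0.93 with the genes at 0 in a group set to their bound). Their sum was 2762 to 2791 CPM with CMM alone and 1057 to 1083 CPM with EGM2. The simple epithelial keratin Krt8 stood at 1157, 1151 and 1168 CPM with CMM alone and 265, 274 and 265 CPM with EGM2 (4.32-fold lower; log2 fold change -2.11, SE 0.0314, adjusted p = 2.56e-30), and its partner Krt18 fell from 726 to 149 CPM. Undifferentiated GS cells had 201 CPM of Krt8. Tight junction claudins Cldn4 and Cldn6 fell from 13 to 2.01 CPM and from 105 to 38.3 CPM, and E-cadherin, Cdh1, from 318 to 253 CPM. Aldh1a2, the retinoic acid synthase of mesothelium, went from 4.71, 4.74 and 4.17 CPM to 0 counts in all EGM2 libraries, at least 30.7-fold lower against a floor of 3 counts per library. Msln, mesothelin, rose against the trend from 7.58 to 99.2 CPM. Endoderm genes fell in 7 of 12 cases (58.3%) and rose in 2 (16.7%), with a median of -0.33 that ran from -0.69 without EGM2 replicate 3 to -0.14 without CMM replicate 1. Hnf4a, a liver and gut factor, fell from 26.1 to 3.16 CPM, and Apoc3, an apolipoprotein, had 29 counts over the 3 libraries with CMM alone and 2 with EGM2.

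Pericyte genes were tested in 10 cases, of which 6 rose and 4 fell (60% and 40%), with a median log2 fold change of 1.07. Both subunits of the vascular potassium channel that ATP closes rose: Abcc9, the sulfonylurea receptor, stood at 0.38, 0.504 and 0.927 CPM with CMM alone and 68.9, 77 and 74.2 CPM with EGM2 (124-fold higher; log2 fold change 6.95, SE 0.157, adjusted p = 6.34e-24), and Kcnj8, the pore, had 9 counts over the 3 libraries with CMM alone and 954 with EGM2. These genes neighbour each other, at chr4:176805431-176922424 and chr4:176782498-176789304 (Rnor_6.0, minus strand). Pdgfrb, Notch3 and Mcam, which also mark pericytes, fell, for example Notch3 from 6.68 to 3.34 CPM.

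The Notch list held 9 lower (47.4%) and 5 higher (26.3%) of 19, with a median of -0.24 (0.06 with no filter on low counts). Its summed level was 563 to 584 CPM with CMM alone and 867 to 872 CPM with EGM2, and Rbpj, the DNA-binding partner of Notch, rose from 162 to 498 CPM. The ligand Jag1 stood at 46.8, 46.6 and 49 CPM with CMM alone and 8.19, 7.71 and 6.06 CPM with EGM2 (6.47-fold lower; log2 fold change -2.69, SE 0.0843, adjusted p = 3.55e-22) and the receptor Notch1 fell from 19.4 to 5.86 CPM, but the ligand Dll1 rose from 1.5 to 20.9 CPM. The Wnt list held 11 higher (30.6%) and 16 lower (44.4%) of 36. Sfrp1, a secreted Wnt antagonist, stood at 0.476, 0.756 and 0.464 CPM with CMM alone and 30.0, 29.4 and 31.7 CPM with EGM2 (53-fold higher), and Sfrp2 rose from 10.9 to 139.6 CPM. Undifferentiated GS cells had 1.51 CPM of Sfrp1 and 457 CPM of Sfrp2. Nkd2, an intracellular antagonist, fell from 79.9 to 5.54 CPM. Lgr5, the R-spondin receptor of stem cells, had 265 counts over the 3 libraries with CMM alone and 3 with EGM2.

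The largest single differences were genes nearly absent from one medium. Adcyap1r1, the receptor for the neuropeptide PACAP (chr4:85662892-85711696, Rnor_6.0), had 0 counts in all 3 CMM libraries and 115, 108 and 111 CPM with EGM2, at least 715-fold higher against a floor of 3 counts per library. It also had 0 counts in undifferentiated GS cells. Nptx1, a secreted neuronal pentraxin, had 2, 0 and 3 counts with CMM alone and 3484, 3973 and 3283 with EGM2. Ace, the angiotensin-converting enzyme of vessel walls, had 8, 3 and 4 counts with CMM alone and 1760, 2159 and 1630 with EGM2 (342-fold higher in CPM; log2 fold change 8.42, SE 0.171, adjusted p = 6.19e-27). Aldh3a1, an aldehyde dehydrogenase, had 0, 3 and 1 counts with CMM alone and 967, 1208 and 944 with EGM2. The cytokine receptor chain Il20rb rose from 0.881 to 62 CPM, while Sorcs1 and Prkg2, a cGMP-dependent kinase, went from 0.185 and 0.181 CPM to 16.6 and 14.1 CPM.

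In the other direction, Car3, carbonic anhydrase 3 (chr2:88126667-88135410, Rnor_6.0), stood at 31.7, 29.7 and 28.3 CPM with CMM alone and had 0 counts in all EGM2 libraries, at least 202-fold lower. Limch1, an activator of non-muscle myosin, stood at 46.4, 46.8 and 46.1 CPM with CMM alone and 0.57, 0.263 and 0.418 CPM with EGM2 (112-fold lower; log2 fold change -6.81, SE 0.161, adjusted p = 2.74e-25), and Nrep fell from 76.3 to 1.87 CPM. Amn, a partner of the vitamin B12 receptor cubilin, fell from 40.4 to 0.473 CPM, the receptor kinase Ltk from 22.2 to 0.872 CPM and the phosphodiesterase Pde2a from 10.1 to 0.357 CPM. Among called genes with many counts, Ccdc80, a secreted matrix protein, fell from 5600.0 to 1228 CPM, and Flna, the actin cross-linker filamin A, from 2929 to 1314 CPM, while Ltbp2, a protein of elastic fibres, rose from 1587 to 4300.3 CPM.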

How the data were processed

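RNA sequencing of rat GS cells and fibroblasts was deposited by the authors as raw read counts per gene, with gene lengths, for 12 libraries. Per the labels' protocols, RNA was purified with an RNeasy Mini kit and amplified by the Ovation RNA-seq System v2. Bowtie 0.12.2 and the builds Rnor_6.0 and mm8 stand in the submitters' processing notes; for the counting tool, annotation and strandedness, nothing is given in the sources. Overlapping or near-identical genes may therefore share reads.

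Counts were filtered with filterByExpr, scaled by TMM and fitted in edgeR 4.0.16 (R 4.3.3) with 1 robust quasi-likelihood model over 4 groups (8 residual df, biological coefficient of variation 9.72%). P-values were adjusted by Benjamini-Hochberg over 14399 of 32545 genes. SE is the absolute log2 fold change divided by the root of F. Folds are taken from the fit, and none is given for a group under 10 counts, except bounds against 3 counts per library. The script was tested on simulated data in which few genes changed, as many up as down. Its scaling with as large a share of changed genes as here was not tested. Alternatives included DESeq2 1.42.0 and limma-voom (limma 3.58.1).

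The comparison, its 36 gene lists (1127 memberships, 900 tested symbols) and the rules were chosen with earlier results of these data known. Named were Sall4, Gata4 and defining markers; the 12 largest rises and falls by fitted change (called, media not overlapping, mean of 10 CPM or more in the higher medium); the 6 called genes with most CPM among 2-fold changes per direction; per list, the 3 called members that differed most, at 1 CPM or more; and list members described one by one. Where 15 listed symbols had several identifiers, the one with the highest mean CPM was used. Positions are Rnor_6.0 as deposited; promoter windows are from RefSeq (GRCr8). A few genes under this rule are not reported here.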

Additional observations from a re-analysis of the deposited data

How the results depend on the processing

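The count of called genes was 9167, and over settings with all libraries of both groups it ran from 7597 to 9331. With at least 10 CPM in at least 3 libraries, 10216 genes were tested, and 1550 were called with at least a 2-fold difference against 2735; fewer genes tested is part of that setting's construction. Leaving out each library in turn gave 8631 to 8775 called genes, 4333 to 4436 higher and 4248 to 4360 lower. Library totals in place of TMM moved the median of all genes to 0.027. Of 267 tested genes, those of the naming rule and the list members described in the text, 262 kept direction and side of the threshold under each of the 14 alternatives that tested them, and 0 reversed. The others were Tie1, Tek, Myh6 and Mx1, given above, and Cdx2, which lost its call without CMM replicate 1 (adjusted p = 0.133) or EGM2 replicate 2 or 3 (adjusted p = 0.0579 and 0.0619); the cause was not tested. Same-numbered libraries of both groups showed little common deviation (r = 0.0103, 0.0273 and -0.00104 across genes). A small shared effect would also give such values, so whether the numbers pair the libraries is not known. The replicate block gave 9054 called genes. Of 72 counts of called list members, 13 moved by over 1.5 times under some alternative, most under the 10 CPM filter, which leaves fewer members: 8 endothelial genes were then higher and 6 lower. Of 36 list medians, 20 moved by over 0.1 under some alternative. Those of the endothelial, cardiac progenitor, p53, IGF and Notch lists changed sign under at least 1 alternative. The leukocyte median, 0 in the main fit, ran from -0.08 to 0.77. The TGF-beta median was 0.40 and the pericyte median 0.55 with no filter on low counts. The Mx1 call was also lost in the 6 libraries alone (adjusted p = 0.111) and by limma-voom (adjusted p = 0.0971). Depth limited genes under about 10 counts per group, for which no fold is given.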

Other observations

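Transcription factor genes, taken by the family column of the deposited table, were called higher less often, and lower somewhat more often, than all tested genes. Of 985 tested, 251 were higher and 351 lower, with a median log2 fold change of -0.07. Over all tested genes 32.1% were higher and 31.5% lower. The largest family, zf-C2H2, held 77 higher and 117 lower of 393. HMG-box genes held 5 higher and 22 lower of 41, bZIP genes 12 and 20 of 45, and bHLH genes 25 and 21 of 60. Among 209 lincRNAs, 43 were higher and 36 lower, both smaller shares than over all tested genes.

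Mir675, a microRNA gene chosen after its values were seen (chr1:215745981-215746064, Rnor_6.0), stood at 549, 531 and 616 CPM with CMM alone and at 68.1, 61.8 and 65.9 CPM with EGM2 (8.66-fold lower; adjusted p = 1.42e-20 by edgeR). It lies on the chromosome that also holds Igf2, which rose. Reads of the microRNA and of a longer transcript over it cannot be told apart in these counts.

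Some genes were high in 1 library of a group alone, at 10 times or more the other libraries and at least 5 CPM. There were 7, 7 and 6 such genes in CMM replicates 1, 2 and 3 and 7, 13 and 8 in EGM2 replicates 1, 2 and 3. Atp5f1, chosen after its values were seen, stood at 0.618, 30.5 and 0.985 CPM with CMM alone and at 0.83, 0.526 and 25.3 CPM with EGM2. Some other genes, such as Tma7 and Fam50a, were likewise high in a single library of each group.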
